A study of Mus musculus with 22 samples.

Results

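The proteasome and the genes that load its peptides onto MHC class I were followed in bone marrow-derived macrophages that lack Il10 and were given lipopolysaccharide (LPS, a bacterial ligand of Toll-like receptor 4), interleukin-10 (IL-10), both or neither. The genes were chosen by name: every gene whose symbol starts with Psma to Psmg and a digit, and 16 class I genes (H2-K1, H2-D1, H2-Q4, H2-Q6, H2-Q7, H2-T22, H2-T23, B2m, Tap1, Tap2, Tapbp, Tapbpl, Erap1, Nlrc5, Calr and Pdia3), kept where 2 or more libraries of the 6 h and 12 h table held 10 normalized reads. Of 69 matching symbols, 66 met the minimum, 50 Psm genes and 16 class I genes, out of 12817 genes tested at 6 h and 12 h. All 66 also passed at 3 h, where 12338 genes were tested. The 3 symbols left out were the pseudogenes Psmb5-ps, Psmb6-ps and Psmb7-ps2. The name rule also took in Psmc3ip, which codes for a recombination cofactor and not a proteasome subunit, and Psme2b, a copy of Psme2 on chromosome 11.

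Every library came from Il10-/- mice on a C57BL/6 background, 6 to 12 weeks old, whose marrow was grown for 7 to 8 days in medium conditioned by L929 cells. There were 11 groups of 2 libraries in 2 tables that were normalized separately. The 3 h table holds untreated cells and cells given LPS, IL-10 or both, each agent at 100 ng/ml. The other table holds 1 untreated group, whose harvest time is not given, and the same 3 treatments for 6 h and for 12 h. No wild-type cells were included, the deleted allele is not given, and the labels do not say whether the 2 libraries of a group came from separate cultures or animals, so p-values measure the spread between these libraries only. The 8 macrophage markers summed to between 330900 and 626300 normalized reads in every library, while 6 T and NK cell markers summed to at most 24.99, 4 B cell markers to 102.2, 5 neutrophil markers to 87.38 and 4 erythroid markers to 2.81. In bulk RNA, fewer cells of a type and less RNA per cell cannot be told apart. The sum of 4 dendritic cell markers was higher with LPS (285.5 to 325.2 at 3 h, against 44.15 to 63.3), as was that of 4 fibroblast markers (84.57 to 125.6 at 6 h and 142 to 179 at 12 h, against 2.81 to 3.098). With LPS each sum came mostly from 1 gene. Xcr1 reached 310, while Flt3, Zbtb46 and Siglech reached at most 11.7, 25 and 4.96. Dcn reached 179, while Col1a1, Col1a2 and Pdgfra reached at most 1.95, 2.41 and 1.19. The part of such cells in the results was not tested.

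Cells cut up proteins with the proteasome, a barrel of alpha and beta subunits (the 20S core) that is opened by a cap such as the 19S particle or PA28. Cytokines and microbial ligands can induce the subunits Psmb8, Psmb9 and Psmb10, which take the catalytic places of Psmb5, Psmb6 and Psmb7 and form the immunoproteasome, whose peptides fit class I molecules well. The transporter made of Tap1 and Tap2 moves peptides into the endoplasmic reticulum, tapasin (Tapbp), calreticulin (Calr) and Pdia3 help to load them, Erap1 trims them, and B2m pairs with the heavy chains coded by the H2 genes. Nlrc5 is the transactivator of class I promoters.

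The starts of 7 genes that rose with LPS and of Psmb5, which did not pass at any time, are shown first, because the factors known to drive class I genes bind there. RefSeq promoter windows (GRCm38.p6, 250 bases before to 50 after the start) were found for 55 of the 66 genes, in 59 windows. Letters in capitals match 1 of 3 motifs on either strand: the ISRE core of interferon regulatory factors (GAAA, any 2 bases, GAAA), the NF-kappa-B motif (GGG, any 2 bases, TT, any 1 base, CC), or the NRF motif TGACNNNGC (ARE). No matches overlap each other in the windows printed, and the Tap1 and Psmb8 windows hold none. The Tap1 window (chr17:34187306-34187605, plus strand) also covers most of the Psmb9 window (chr17:34187281-34187580, minus strand), since both genes start from 1 stretch in opposite directions. Psmb8 (chr17:34197945-34198244, plus strand) lies beside them, Psme1 (chr14:55578244-55578543, plus strand) codes for PA28 alpha, and B2m (chr2:122147437-122147736, plus strand), H2-K1 (chr17:34000298-34000597, minus strand) and H2-Q7 (chr17:35438905-35439204, plus strand) code for the class I molecules. Psmb5 (chr14:54617946-54618245, minus strand) is the constitutive counterpart of Psmb8.
Tap1: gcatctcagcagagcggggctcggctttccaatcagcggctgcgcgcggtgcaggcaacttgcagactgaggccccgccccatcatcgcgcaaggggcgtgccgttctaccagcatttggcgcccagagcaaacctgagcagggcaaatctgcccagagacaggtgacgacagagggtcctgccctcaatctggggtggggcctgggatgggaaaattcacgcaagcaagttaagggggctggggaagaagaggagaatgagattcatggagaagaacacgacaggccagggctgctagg
Psmb8: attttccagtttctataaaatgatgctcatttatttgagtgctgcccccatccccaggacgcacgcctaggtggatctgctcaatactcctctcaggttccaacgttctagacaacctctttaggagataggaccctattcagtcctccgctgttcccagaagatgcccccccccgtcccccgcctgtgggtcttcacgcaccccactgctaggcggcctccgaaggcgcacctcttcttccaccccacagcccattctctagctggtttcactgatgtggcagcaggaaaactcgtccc
Psme1: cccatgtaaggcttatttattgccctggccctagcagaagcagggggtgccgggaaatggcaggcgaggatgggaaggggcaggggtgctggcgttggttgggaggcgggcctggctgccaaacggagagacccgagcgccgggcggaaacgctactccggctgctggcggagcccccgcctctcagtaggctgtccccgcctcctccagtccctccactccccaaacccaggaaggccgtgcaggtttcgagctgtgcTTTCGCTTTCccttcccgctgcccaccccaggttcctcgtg
B2m: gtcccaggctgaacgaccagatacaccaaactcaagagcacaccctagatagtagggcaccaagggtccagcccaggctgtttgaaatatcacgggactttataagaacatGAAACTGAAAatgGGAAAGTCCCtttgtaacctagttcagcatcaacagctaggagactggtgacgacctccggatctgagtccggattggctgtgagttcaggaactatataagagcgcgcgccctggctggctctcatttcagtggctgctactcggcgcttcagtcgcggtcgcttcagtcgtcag
H2-K1: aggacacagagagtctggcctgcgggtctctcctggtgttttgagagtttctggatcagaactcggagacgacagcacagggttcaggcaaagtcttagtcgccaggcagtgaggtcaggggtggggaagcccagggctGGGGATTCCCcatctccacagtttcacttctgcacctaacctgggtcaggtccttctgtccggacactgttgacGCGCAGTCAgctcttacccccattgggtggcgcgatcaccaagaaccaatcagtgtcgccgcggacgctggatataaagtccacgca
H2-Q7: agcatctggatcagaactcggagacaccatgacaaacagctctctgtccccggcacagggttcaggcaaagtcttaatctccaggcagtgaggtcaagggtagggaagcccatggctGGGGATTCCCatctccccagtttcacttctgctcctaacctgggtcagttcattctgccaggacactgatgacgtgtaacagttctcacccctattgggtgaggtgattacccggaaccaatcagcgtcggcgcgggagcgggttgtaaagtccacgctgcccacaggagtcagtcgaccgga
Psmb5: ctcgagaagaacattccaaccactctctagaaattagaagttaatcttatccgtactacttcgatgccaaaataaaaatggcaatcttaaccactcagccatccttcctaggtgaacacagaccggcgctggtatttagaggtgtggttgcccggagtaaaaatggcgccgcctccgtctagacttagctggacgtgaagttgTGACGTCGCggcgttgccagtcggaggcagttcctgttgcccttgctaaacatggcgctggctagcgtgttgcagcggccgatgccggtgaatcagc
The NF-kappa-B motif was in 7 of 14 class I windows (50%) and in 0 of 45 Psm windows, against 4.79% of 32851 windows of all genes. The windows with it belong to B2m, H2-D1, H2-K1, H2-Q4, H2-Q6 and H2-Q7, and the heavy chain genes are paralogs with much the same sequence. H2-K1 counts with 2 overlapping windows that hold the same NF-kappa-B site and the same ARE site. In the B2m window an ISRE core begins at base -139 and the NF-kappa-B motif at -126, with the first transcribed base as 0. The ISRE core was in 9 of 59 windows (15.3%, against 3.44% of all windows), those of Psme1, B2m, H2-T22, H2-T23, Erap1, Psmd4, Psmb3, Psmd9 and Psmg4. Of these, Psmb3, Psmd9 and Psmg4 did not pass with LPS at any time. The ARE motif was in 11 windows (18.6%, against 12.4% of all). A match is a row of letters, not a measured binding site.

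**Figure D1:**
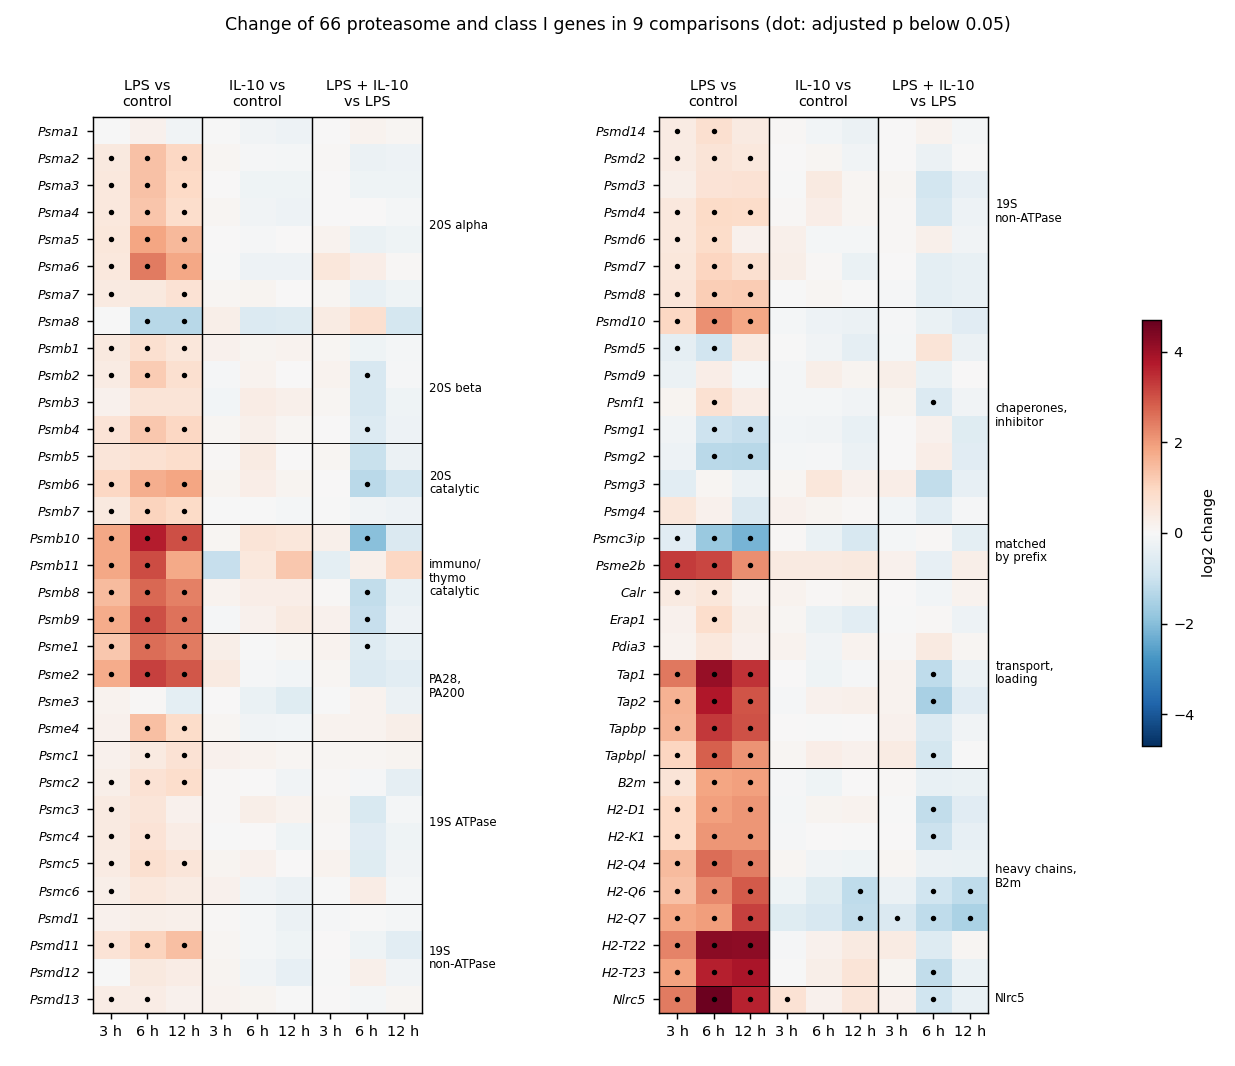
Heat map of the log2 change of all 66 genes (rows, by role) in 9 comparisons (columns); red is higher, blue is lower, and a dot marks an adjusted p below 0.05. The highest changes with LPS were those of Psme2b at 3 h (3.28), Nlrc5 at 6 h (4.61) and H2-T22 at 12 h (4.21). The 8 class I chains ran from 0.61 to 2.34 at 3 h. Of the 9 comparisons, LPS with IL-10 at 6 h had the lowest median over the members (-0.36).

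LPS raised most of these genes at every time, in the scaling of the deposited tables. At 3 h 46 of the 66 rose and 2 fell, where 53.5% of all genes tested changed (27.6% higher, 25.9% lower). At 6 h 47 rose and 5 fell (59.7% of all genes changed, 28.4% higher and 31.3% lower), and at 12 h 40 rose and 4 fell (47.5% of all genes changed, 23.7% higher and 23.8% lower), by limma with Benjamini-Hochberg adjustment over all genes. The members' median log2 change was 0.49, 1.02 and 0.83 at 3 h, 6 h and 12 h, beside 0.03, -0.04 and -0.02 for all genes tested. In all, 37 members rose at all 3 times and 11 passed at none. The matching counts over all genes were not made.

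The size of the rise depends on how libraries are scaled. With the deposited scaling the LPS libraries hold more normalized reads in total (32877731 and 35469303 at 6 h) than the controls (14632292 and 16377752). When every library was set to the same total, the median of all genes moved to -0.56, -1.16 and -0.75 at 3 h, 6 h and 12 h. The members then split into 20 higher and 19 lower at 3 h, 23 and 21 at 6 h, and 25 and 12 at 12 h, while the share of higher calls over all genes went from 51.5% to 18.1%, from 47.6% to 16.7% and from 49.9% to 20%. With quantile normalization that share was 39.6% at 3 h, and 30 members passed, 19 of them higher. The members that rose under every one of the 20 alternatives at 3 h and the 27 at 6 h and 12 h were 17: Psmb8, Psmb9, Psmb10, Psme1, Psme2, Psme2b, Psmd10, Tap1, Tap2, Tapbp, Tapbpl, H2-Q4, H2-Q6, H2-Q7, H2-T22, H2-T23 and Nlrc5. How many of all genes did so was not counted.

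The catalytic subunits of the immunoproteasome were among the highest rises within the proteasome. Psmb8 stood at 687.9 and 1307 normalized reads in the 3 h controls and at 2510 and 2766 with LPS. In the other table it was 1529 and 793.8 in the controls, 7769 and 6548 after 6 h of LPS and 5183 and 6394 after 12 h. Every LPS library was above every control library of its table, with log2 changes of 1.47 ± 0.24 at 3 h, 2.69 ± 0.32 at 6 h and 2.38 ± 0.32 at 12 h (± SE, 2 libraries a group; adjusted p = 4.2e-05 at 6 h).

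Psmb9, which shares its start with Tap1, read 284.8 and 390.3 in the 3 h controls and 1043 and 1200 with LPS. At 6 h it reached 4053 and 3412 from control values of 662.2 and 309.8, and at 12 h 2330 and 3064. These are log2 changes of 1.74 ± 0.16, 3.03 ± 0.33 and 2.56 ± 0.33, with no overlap between LPS and control libraries. Psmb10 went from 178.2 and 313.9 to 753.4 and 940.7 at 3 h. Its 6 h values of 6072 and 3993 and its 12 h values of 2866 and 3299 compare with 753.0 and 189.0 in the controls, a spread of 1.99 log2 units between these controls alone. The changes of Psmb10 were 1.83 ± 0.25, 3.70 ± 0.58 and 3.02 ± 0.58. Psmb11, the thymus-specific catalytic subunit, also passed at 3 h and 6 h, but from 0 to 11 reads in a control library, so its changes rest on few reads.

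The constitutive catalytic subunits rose less or did not pass. Psmb5 was 499.7 and 957.9 in the 3 h controls and 963.2 and 1099 with LPS. In the second table its controls read 1361 and 523.6, and LPS gave 1522 and 1292 at 6 h and 1414 and 1568 at 12 h, so that the 6 h libraries overlapped the controls. Its log2 changes of 0.57 ± 0.25, 0.73 ± 0.42 and 0.82 ± 0.42 did not pass at any time. Psmb6 rose at all 3 times, from 1179 and 2120 to 3000 and 3257 at 3 h, and from 3256 and 1672 to 8155 and 6951 at 6 h and 8121 and 8675 at 12 h (0.98 ± 0.22, 1.69 ± 0.28 and 1.85 ± 0.28). Psmb7 rose by 0.45 ± 0.09, 1.06 ± 0.20 and 0.90 ± 0.20, but at equal library totals its change was -0.14 at 3 h and -0.08 at 6 h.

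Ratios of an inducible subunit to the constitutive one it replaces are free of library scaling, since both come from 1 library. They are ratios of normalized reads, not per length, and are compared across libraries only. Psmb8/Psmb5 was 1.38 and 1.36 in the 3 h controls and 2.61 and 2.52 with LPS. It was 1.12 and 1.52 in the second controls, 5.10 and 5.07 with LPS at 6 h and 3.66 and 4.08 at 12 h. The ratio was thus higher in every LPS library than in any control of its table. Psmb9/Psmb6 went from 0.203 and 0.185 to 0.497 and 0.491 at 6 h, and to 0.287 and 0.353 at 12 h. Psmb10/Psmb7 went from 0.285 and 0.0548 to 1.04 and 0.588 at 6 h. Psmb10 (56.5% GC over its exons) and Psmb7 (40.8%) differ the most in base composition among these pairs, and their ratio differed the most between the control libraries.

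**Figure D2:**
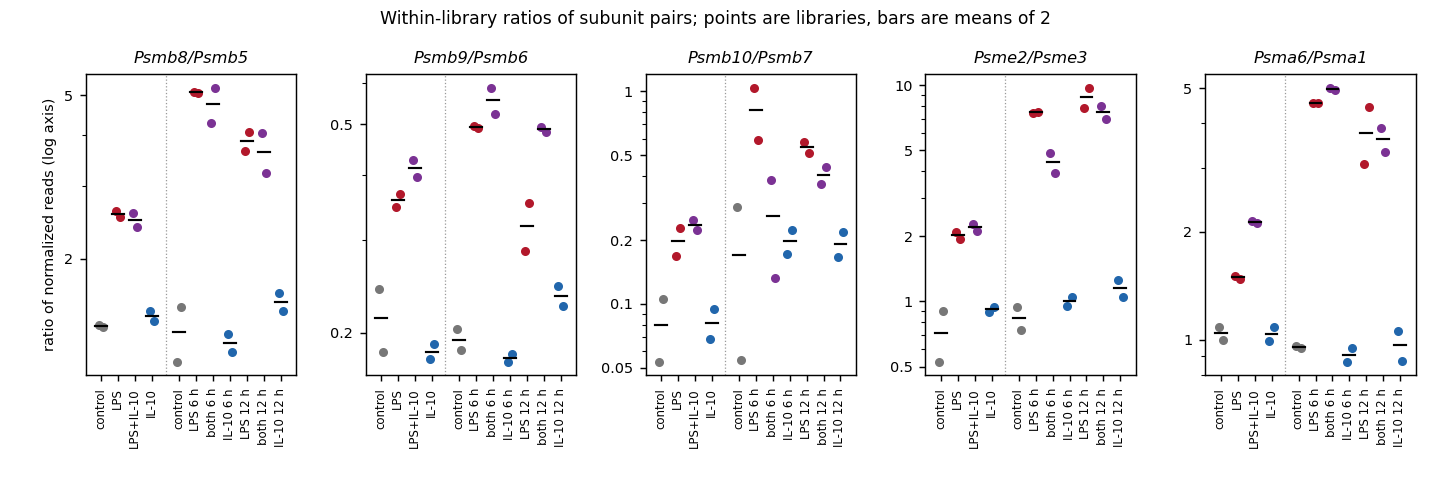
Ratio of normalized reads (log axis) of 5 subunit pairs in each of the 22 libraries (points) with the mean of each group (bars); the dotted line separates the 3 h table from the 6 h and 12 h table. All LPS libraries lie above the controls of their table in the 5 pairs, and at 6 h adding IL-10 left Psmb8/Psmb5 at 4.29 and 5.22.

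The cap PA28 split by subunit. Psme1 (PA28 alpha) rose from 1353 and 1881 to 3666 and 3949 at 3 h, and from 1814 and 1681 to 10621 and 10955 at 6 h and 8080 and 11053 at 12 h. Psme2 (PA28 beta) rose from 1576 and 2558 to 6859 and 6507 at 3 h, and from 2248 and 2307 to 19646 and 22756 at 6 h and 14422 and 20931 at 12 h. Both pass at all 3 times, Psme1 by 1.25 ± 0.14, 2.63 ± 0.19 and 2.44 ± 0.19 and Psme2 by 1.73 ± 0.18, 3.21 ± 0.23 and 2.93 ± 0.23. Psme3, the nuclear PA28 gamma, did not pass, with 0.18 ± 0.08, 0.04 ± 0.18 and -0.46 ± 0.18, and it was lower at equal totals (-0.41 at 3 h and -1.10 at 6 h). Psme2/Psme3 was 0.940 and 0.737 in the controls and 7.47 and 7.54 at 6 h. Psme4 (PA200) rose at 6 h and 12 h, by 1.40 ± 0.30 and 0.88 ± 0.30. Psme2b read 31.65 and 21.02 in the 3 h controls and 242.0 and 277.8 with LPS, and since Psme2 and Psme2b are near-identical, how reads were divided between them is uncertain.

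Tap1 and the transactivator Nlrc5 showed some of the largest changes. Tap1 went from 742.9 and 931.3 to 4422 and 4811 at 3 h, and from 1309 and 751.7 to 18661 and 15758 at 6 h and 8456 and 12700 at 12 h. Its log2 changes were 2.47 ± 0.12, 4.11 ± 0.30 and 3.38 ± 0.30, and at equal library totals 1.88, 2.97 and 2.65. Tap2 rose from 169.9 and 297.8 to 662.8 and 753.7 at 3 h, and from 500.2 and 217.5 to 4950 and 4020 at 6 h and 2165 and 3005 at 12 h (1.65 ± 0.23, 3.75 ± 0.38 and 2.95 ± 0.38). Exons of Psmb9 and Tap1 overlap at their ends on opposite strands, and the use of strand in counting is not given.

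Nlrc5 had close replicates in the controls, 759.5 and 704.2 at 3 h and 728.7 and 693.4 in the second table. LPS brought it to 3944 and 4104 at 3 h, 17597 and 17117 at 6 h, and 7010 and 11055 at 12 h. The groups are far apart, with changes of 2.46 ± 0.10, 4.61 ± 0.25 and 3.63 ± 0.25 (adjusted p = 3.5e-08, 6.9e-07 and 2.9e-06). The fall from 6 h to 12 h of LPS also passed (-0.98 ± 0.25, adjusted p = 0.027), 1 of 4 members to differ between these times, where 15.8% of all genes did (11.1% higher, 4.67% lower). It did not pass at equal totals, with quantile normalization, without either 6 h library, or without the first 12 h library.

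Tapasin and its relative rose as well. Tapbp went from 3515 and 3797 to 10512 and 11855 at 3 h, and from 3087 and 2038 to 26919 and 24001 at 6 h and 17597 and 23112 at 12 h. Tapbpl, which edits peptides bound to class I, went from 184.9 and 227.7 to 402.1 and 432.7 at 3 h, and from 295.0 and 198.9 to 1711 and 1681 at 6 h and 824.5 and 1320 at 12 h. Both passed at each time. The general chaperones had smaller estimates: Calr moved by 0.42 ± 0.09, 0.53 ± 0.19 and 0.15 ± 0.19 and passed at 3 h and 6 h, and Pdia3 by 0.17 ± 0.12, 0.49 ± 0.30 and 0.21 ± 0.30 without passing. At equal totals the sign of Calr turned at all 3 times (-0.17, -0.61 and -0.58), as did that of Pdia3 (-0.42, -0.65 and -0.53). Erap1 passed at 6 h only (0.83 ± 0.27), and turned to -0.31 at equal totals.

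All 8 genes of the class I molecule itself, the 7 heavy chains and B2m, rose at all 3 times. H2-K1, a classical heavy chain, read 8638 and 10633 in the 3 h controls and 17952 and 18744 with LPS. In the second table it read 11590 and 8040 in the controls, 42397 and 39273 at 6 h and 38047 and 43408 at 12 h (0.94 ± 0.11, 2.08 ± 0.22 and 2.07 ± 0.22). H2-D1, the other classical chain measured, rose by 0.93 ± 0.11, 1.91 ± 0.25 and 2.07 ± 0.25. Quantile normalization took the call from H2-K1 and H2-D1 at 3 h and 6 h, without turning the sign.

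B2m, the light chain, stood at 45578 and 39230 normalized reads in the 3 h controls and 65496 and 63217 with LPS. It reached 129245 and 145087 at 6 h and 125404 and 164561 at 12 h from 29674 and 47334 (0.61 ± 0.11, 1.87 ± 0.28 and 1.94 ± 0.28). Under quantile normalization its change was -0.57 at 3 h and -0.13 at 6 h. Per kilobase of exon, the mean level of B2m in the second controls was 44772, of H2-K1 3341, of Psma6 3139, of Psmb5 1048, of Psmb8 343.4, of Psmb10 276.3 and of Nlrc5 83.72. With 6 h of LPS the same levels were 159496, 13899, 16866, 1565, 2117, 2951 and 2044. Psmb8 and Psmb10 thus stood under Psmb5 per kilobase in the control means and over it with LPS, though the control libraries of Psmb5 and Psmb10 spread widely. The length used is that of all annotated exons of a gene, merged (3.381 kb for Psmb8, 0.899 kb for Psmb5). Not divided by length, Psmb8 was already above Psmb5 in every control library, so its order depends on that length.

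Among the heavy chains, H2-T22 and H2-T23 had the highest point estimates at all 3 times. H2-T22, a ligand of gamma-delta T cells, went from 369.8 and 476.5 to 2040 and 2216 at 3 h, and from 557.3 and 404.0 to 9417 and 8639 at 6 h and 8021 and 9668 at 12 h (2.34 ± 0.13, 4.25 ± 0.22 and 4.21 ± 0.22). H2-T23, which codes for Qa-1, went from 707.1 and 340.8 to 6997 and 5606 at 6 h and 6676 and 7496 at 12 h, after 1796 and 1983 at 3 h (1.89 ± 0.15, 3.67 ± 0.31 and 3.85 ± 0.31). H2-Q4 rose by 1.47 ± 0.11, 2.63 ± 0.18 and 2.40 ± 0.18. H2 genes are near-identical in long stretches, so the division of reads among them is uncertain.

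H2-Q6 and H2-Q7, which code for Qa-2, were the 2 heavy chains called higher between 6 h and 12 h of LPS. H2-Q7 read 218.2 and 196.9 in the 3 h controls and 697.5 and 780.2 with LPS. In the second table it read 102.1 and 117.7 in the controls, 516.1 and 367.1 at 6 h and 1141 and 916.0 at 12 h. H2-Q6 read 96.47 and 99.77 in the controls, 487.9 and 460.1 at 6 h and 755.9 and 723.0 at 12 h. From 6 h to 12 h H2-Q7 rose by 1.23 ± 0.25 (adjusted p = 0.01) and H2-Q6 by 0.64 ± 0.18 (adjusted p = 0.039), and neither passed when the first library of each 12 h group was left out. H2-Q6 kept this call in 11 of 27 alternatives.

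The building blocks of the 20S core and the 19S cap rose by smaller amounts, and for several the direction turned with the scaling. Of the 8 alpha subunits 6, 5 and 6 rose at 3 h, 6 h and 12 h, of the 4 structural beta subunits 3 at each time, of the 6 ATPase subunits of the cap 5, 4 and 3, and of its 11 other subunits 8, 8 and 5. Psmc1 of the ATPase ring read 2787 and 2976 in the 3 h controls and 3326 and 3330 with LPS, and 2581 and 2937 against 3482 and 3991 at 6 h. Psmd14, the deubiquitinating subunit, read 3216 and 2663 against 3931 and 3638 at 3 h, and 2217 and 3316 against 4155 and 5002 at 6 h. At 6 h Psmc1 changed by 0.44 ± 0.15 and Psmd14 by 0.75 ± 0.22, and at equal library totals by -0.70 and -0.39. At 12 h Psmd11 (1.42 ± 0.15), which helps to build the cap, rose under all 27 alternatives.

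Psma6 had the highest rise among the alpha subunits at 6 h and 12 h. It read 5252 and 3617 in the 3 h controls and 6470 and 5831 with LPS, then 18885 and 22740 after 6 h of LPS and 10112 and 17139 after 12 h, against 2935 and 4813 in the second controls. Its change was 0.49 ± 0.15 at 3 h, 2.46 ± 0.30 at 6 h and 1.81 ± 0.30 at 12 h, and at equal totals -0.09, 1.32 and 1.07. Psma1, with a similar GC content (44.0% beside 46.6%), did not pass at any time (-0.02 ± 0.14, 0.21 ± 0.24 and -0.15 ± 0.24), and was lower at equal totals (-0.61, -0.93 and -0.89). Psma6/Psma1 within a library was 0.960 and 0.947 in the controls, 4.55 and 4.56 with LPS at 6 h, and 3.09 and 4.44 at 12 h. Psma5 was next among the alpha subunits, at 1.85 ± 0.22 and 1.52 ± 0.22 at 6 h and 12 h. Psma8, the form found in testis, fell at 6 h and 12 h from a low level (43 and 102 reads in the controls, 6 and 18 at 6 h). Neither call held without the second control library or without the first LPS library of that time.

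Assembly factors moved in both directions. Psmg1 and Psmg2, the chaperone pair of the alpha ring, fell at 6 h (-0.96 ± 0.25 and -1.27 ± 0.22) and 12 h (-1.09 ± 0.25 and -1.29 ± 0.22). Psmg2 read 311.9 and 376.8 in the controls, 143.1 and 140.3 at 6 h and 173.3 and 111.9 at 12 h, with no overlap. Psmd10 (gankyrin), a chaperone of the cap, rose at each time, from 807.9 and 677.6 to 1502 and 1423 at 3 h and from 593.8 and 952.5 to 3146 and 3606 at 6 h (0.98 ± 0.12, 2.16 ± 0.26 and, at 12 h, 1.81 ± 0.26). Psmd5, another chaperone of the cap, fell at first: 1176 and 985.2 became 832.8 and 763.6 at 3 h, and 949.7 and 1460 became 592.0 and 685.3 at 6 h (-0.43 ± 0.11 and -0.89 ± 0.22). At 12 h it read 1614 and 1540, and its rise from 6 h to 12 h passed (1.31 ± 0.22, adjusted p = 0.0034). Psmf1, an inhibitor of the core, rose at 6 h (0.73 ± 0.18, but -0.40 at equal totals).

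**Figure D3:**
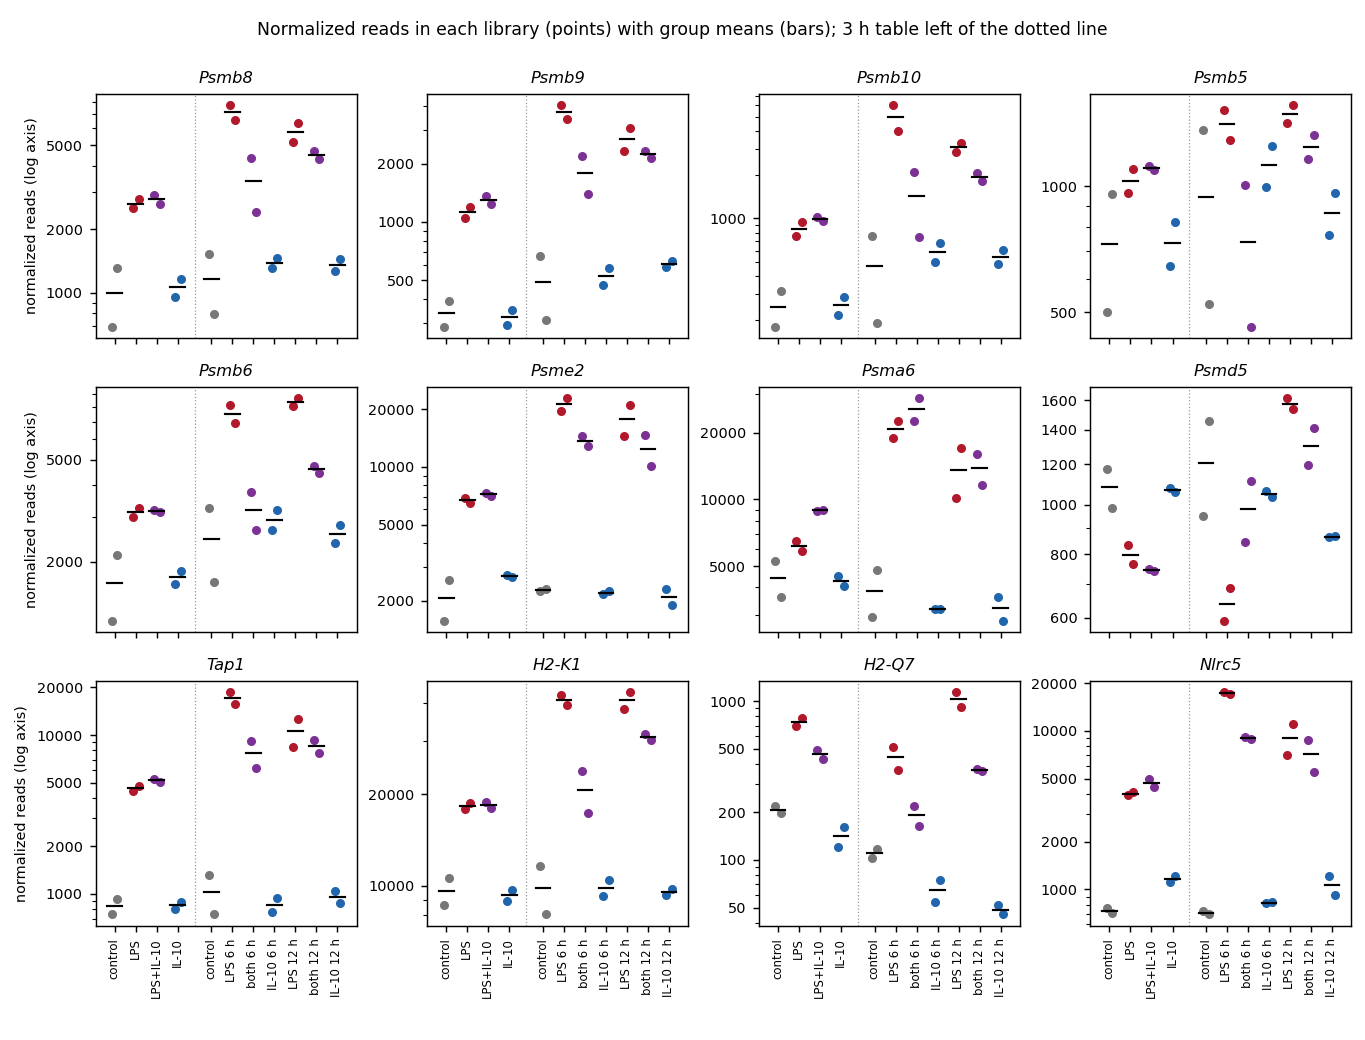
Normalized reads (log axis) of 12 genes in each of the 22 libraries (points: grey control, red LPS, purple LPS with IL-10, blue IL-10), with the mean of each group (bars); the dotted line separates the tables. At 6 h the purple points of Psmb8, Psmb9, Psmb10, Tap1, H2-K1 and Nlrc5 lie below the red ones and above the grey ones or beside them, while H2-Q7 is lower with IL-10 at all 3 times.

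Transcription factors and partners of these genes were followed beside the 53.5%, 59.7% and 47.5% of all genes that changed with LPS at 3 h, 6 h and 12 h. Of 15 transcription factors tied to class I promoters, 9 rose and 3 fell at 3 h, 9 and 2 at 6 h, and 6 and 1 at 12 h. Irf1 read 616.3 and 781.3 in the 3 h controls and 19751 and 19804 with LPS (4.83 ± 0.11), Stat2 rose by 2.36 ± 0.08 and Nfkb1, an NF-kappa-B subunit, by 2.90 ± 0.10. Of 20 measured partners of the proteasome and ubiquitin, 9 rose and 2 fell at 3 h, 9 and 1 at 6 h, and 8 and 3 at 12 h, which is near the share over all genes. Pomp, which helps to assemble the core, rose by 1.23 ± 0.18 at 6 h. Ddi2, the protease that activates the proteasome gene activator Nfe2l1, fell from 1581 and 1427 to 258.2 and 274.5 at 3 h and from 1111 and 1292 to 160.5 and 186.0 at 6 h (-2.49 ± 0.10 and -2.79 ± 0.27), and Nfe2l1 itself rose by 1.97 ± 0.23 at 12 h.

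Other class I molecules and peptidases moved in both directions. Of 8 further class I-like genes measured, 4 rose and 2 fell at each time. H2-T24 rose by 4.41 ± 0.24 at 6 h and H2-T10 by 3.09 ± 0.25, while Mr1, which presents vitamin metabolites, fell by 2.62 on the log2 scale. Of 12 peptidases and folding partners, 5 rose and 0 fell at 3 h, and 6 rose and 2 fell at 6 h and at 12 h. The 3 h count is below the share over all genes (53.5%), and the later ones are somewhat above it (59.7% and 47.5%). The cytosolic aminopeptidases Npepps and Lap3 rose at 6 h by 1.92 ± 0.22 and 2.08 ± 0.32.

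IL-10 given together with LPS lowered 17 of the 66 genes at 6 h and raised 0, where 23.7% of all genes changed, 13.7% higher and 10% lower. The fall took in the immunoproteasome (Psmb8, Psmb9, Psmb10), the transporter (Tap1, Tap2), Tapbpl, the heavy chains H2-K1, H2-D1, H2-Q6, H2-Q7 and H2-T23, Nlrc5, Psme1, Psmb2, Psmb4, Psmb6 and Psmf1. The members' median was -0.36, beside 0.01 for all genes tested. By role, the 3 inducible catalytic subunits fell (the thymus-specific Psmb11 did not pass), 5 of 8 class I chains, 3 of 7 transport and loading genes, 1 of 3 constitutive catalytic and 2 of 4 structural beta subunits, and 0 of 8 alpha subunits, 6 ATPases and 11 other subunits of the 19S cap. The summed macrophage markers were also lower with both agents at 6 h (389200 to 422200) than with LPS (584900 to 626300), and their part was not tested.

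Psmb10 showed the deepest fall, from 6072 and 3993 with LPS to 2089 and 747.8 with both (-1.98 ± 0.58, adjusted p = 0.032). Psmb8 went from 7769 and 6548 to 4329 and 2405 (-1.14 ± 0.32) and Psmb9 from 4053 and 3412 to 2192 and 1398 (-1.09 ± 0.33). The libraries with both agents were below all LPS libraries for these 3 genes, and for Psmb10 the second of them overlapped the controls (753.0 and 189.0). Tap1 went from 18661 and 15758 to 9206 and 6239 (-1.18 ± 0.30) and Tap2 from 4950 and 4020 to 2128 and 1151 (-1.51 ± 0.38). All the values with both agents were still above the highest control, which was 1309 for Tap1 and 500.2 for Tap2. Nlrc5 went from 17597 and 17117 to 9098 and 8944 (-0.94 ± 0.25), with close replicates in both groups.

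Among the class I chains, H2-K1 went from 42397 and 39273 to 23859 and 17399 (-1.0 ± 0.22) and H2-D1 from 51790 and 45961 to 26027 and 18382 (-1.16 ± 0.25). H2-T23 went from 6997 and 5606 to 3496 and 2222 (-1.17 ± 0.31). Groups did not overlap for these 3 chains. B2m, H2-T22, H2-Q4, Tapbp and Psme2 had changes of -0.36 ± 0.28, -0.60 ± 0.22, -0.28 ± 0.18, -0.65 ± 0.22 and -0.63 ± 0.23 and did not pass. Psmb6 went from 8155 and 6951 to 3731 and 2669 (-1.25 ± 0.28). It was the 1 member whose interaction passed at 6 h, where 6.72% of all genes did, 4.46% upward and 2.26% downward (-1.57 ± 0.40, adjusted p = 0.041), so the change of Psmb6 with IL-10 differed between cells with and without LPS. The interaction kept its call in 11 of 27 alternatives. With DESeq2 9 members passed and with edgeR 0, and the shares of all genes that passed in these fits are not given here. At 3 h and 12 h 0 members passed the interaction by limma, edgeR or DESeq2, where 2.79% (1.47% upward, 1.32% downward) and 0.382% (0.148% and 0.234%) of all genes did by limma. At these times 3 and 2 of 66 members had an unadjusted p below 0.05, beside 1612 of 12338 and 1251 of 12817 genes.

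Within libraries, the inducible subunits and their partners moved unequally. Psmb8/Psmb5 was 5.10 and 5.07 with LPS at 6 h and 4.29 and 5.22 with both, an overlap. Psmb9/Psmb6 was 0.497 and 0.491 with LPS and 0.587 and 0.524 with both. Psmb10/Psmb7 was 1.04 and 0.588 with LPS and 0.383 and 0.133 with both, and Psme2/Psme3 was 7.47 and 7.54 with LPS and 4.86 and 3.92 with both. So the first ratio overlapped, the second was higher with both agents, and the last pair of ratios was lower.

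**Figure D4:**
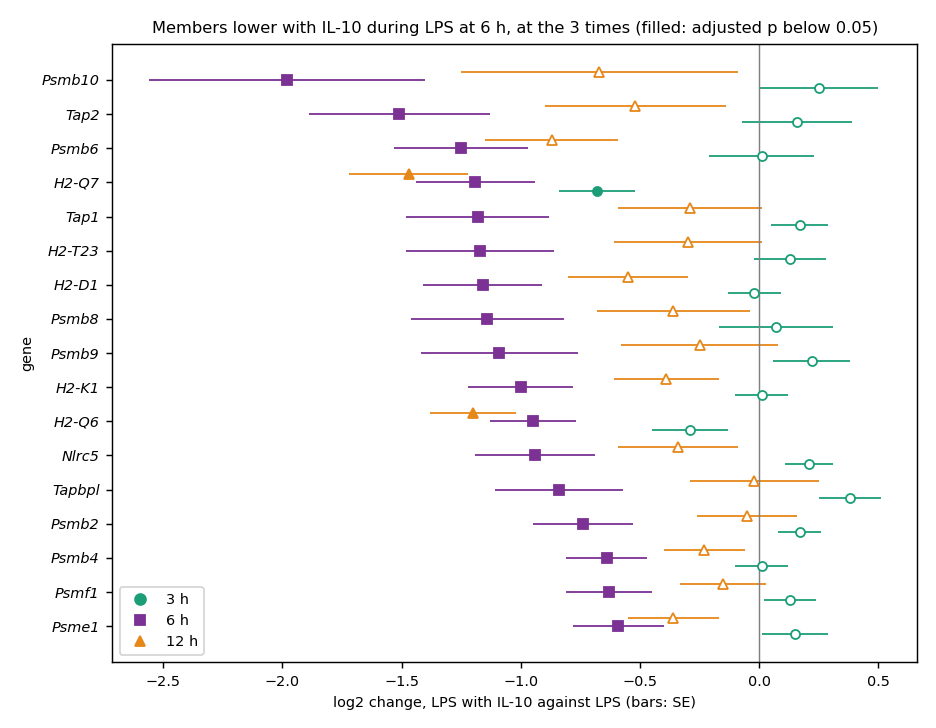
Log2 change (LPS with IL-10 against LPS, ± SE) of the 17 genes that were lower at 6 h, at 3 h (circles), 6 h (squares) and 12 h (triangles); filled symbols passed an adjusted p of 0.05. At 3 h 1 of them passed (H2-Q7), and at 12 h 2 (H2-Q6 and H2-Q7).

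The 6 h fall rests on few libraries. Leaving out the first LPS library or the second library with both agents left 0 members called, leaving out the second LPS library left 5, and leaving out either control library gave 28. Replicates at 6 h and in the control differ along GC content: across the 66 members the rank correlation of GC with the log2 ratio of the second to the first library was -0.76 in the control, -0.64 with LPS and -0.78 with both. The 17 members called lower had GC contents from 48.8% (Psmf1) to 56.9% (Tap2), and no member below that range was called. Many members within it did not pass. All alpha subunits but Psma7 had 49.15% (Psma5) or less, so the split by role also runs along GC. The part of GC in that split was not tested. Of the 5 most GC-rich members, Tap2 (56.9%) and Psmb10 (56.5%) were called lower. Psma7 (57.4%), Tapbp (57.1%) and Psmb5 (56.6%) did not pass, with -0.36 ± 0.20, -0.65 ± 0.22 and -1.04 ± 0.42. With the GC trend removed 29 members were lower and 1 higher, and Psmb10 changed by -1.59 and Tap2 by -1.10. At equal library totals 7 were higher and 4 lower, and with quantile normalization 1 and 3. The shares of all genes called in the alternative fits of this paragraph are not given here, so the counts describe the members only.

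**Figure D5:**
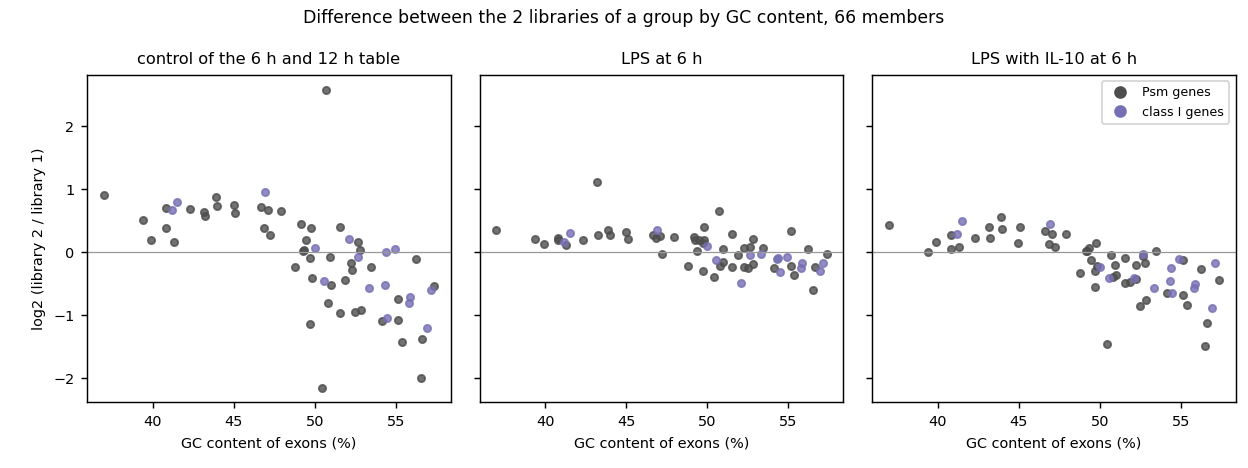
Log2 ratio of the second to the first library of 3 groups (vertical axis) against the GC content of the exons (horizontal axis, percent) for the 66 members. In all 3 groups the GC-rich genes lie lower. The ratio runs from -2.15 to 2.57 in the control group, where the upper end is Psmb11 with 0 and 8 reads. The next highest is Pdia3 at 0.96.

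At 3 h IL-10 during LPS changed 1 member, H2-Q7, where 9.6% of all genes changed, 4.68% higher and 4.92% lower. It went from 697.5 and 780.2 with LPS to 493.3 and 431.1 with both (-0.68 ± 0.16, adjusted p = 0.026). The call was lost without any 1 of these 4 libraries. A fit of the 2 groups alone called 14 members, 12 higher and 2 lower, and the share of all genes called in that fit is not given here. Among the others, Psmb8 was 2510 and 2766 with LPS and 2907 and 2626 with both, and Tap1 4422 and 4811 against 5290 and 5075. The members' median was 0.06, beside 0.01 for all genes. An unadjusted p below 0.05 was found for 4 of 66 members and for 2624 of 12338 genes. Psma6 read higher in both libraries, 6470 and 5831 against 8889 and 8996, without passing (0.54 ± 0.15, adjusted p = 0.06), and Psma6/Psma1 went from 1.51 and 1.48 to 2.14 and 2.12.

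At 12 h IL-10 during LPS lowered 2 members, where 4.92% of all genes changed, 2.68% higher and 2.23% lower. H2-Q7 went from 1141 and 916.0 to 374.6 and 364.7 (-1.47 ± 0.25, adjusted p = 0.01) and H2-Q6 from 755.9 and 723.0 to 348.3 and 296.0 (-1.20 ± 0.18, adjusted p = 0.0058). Neither passed when the second library with both agents was left out or when the 2 groups were fitted alone. Psmb6 went from 8121 and 8675 to 4726 and 4449 with no overlap, without passing (-0.87 ± 0.28). The immunoproteasome genes did not pass either. Psmb10 was 2866 and 3299 with LPS and 2059 and 1812 with both (-0.67), also with no overlap. Psmb8 was 5183 and 6394 with LPS and 4687 and 4292 with both, again with no overlap. Psmb9 overlapped, with 2330 and 3064 against 2339 and 2154. The change with IL-10 during LPS was not called different between 6 h and 12 h for any member, by limma, where 1.15% of all genes were (0.265% upward, 0.889% downward). An unadjusted p below 0.05 was found for 6 of 66 members and for 2391 of 12817 genes. No member passed with edgeR or DESeq2.

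IL-10 alone changed few members. At 3 h Nlrc5 rose from 759.5 and 704.2 to 1116 and 1209 (0.67 ± 0.10, adjusted p = 0.009), the 1 member to pass where 1.64% of all genes did, 1.22% higher and 0.421% lower. It did not pass without either IL-10 library or in a fit of the 2 groups alone. At 6 h 0 members passed by limma, edgeR or DESeq2, where 0.0624% of all genes passed by limma. An unadjusted p below 0.05 was found for 2 of 66 members and for 428 of 12817 genes. At 12 h H2-Q6 fell from 96.47 and 99.77 to 44.70 and 40.72 (-1.18 ± 0.18, adjusted p = 0.0098) and H2-Q7 from 102.1 and 117.7 to 51.72 and 45.31 (-1.16 ± 0.25), where 1.56% of all genes passed, 1.01% higher and 0.546% lower. H2-Q7 kept its call in 6 of 27 alternatives and H2-Q6 in 23. At 6 h H2-Q7 was 54.62 and 74.73 and at 3 h 120.9 and 160.6 against 218.2 and 196.9, below the controls each time without passing. The IL-10 and LPS comparisons share the control libraries, and the comparisons of LPS with and without IL-10 share the LPS libraries.

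Regulators of the set were also followed with IL-10 during LPS. At 6 h 3 of the 15 class I transcription factors fell and 0 rose, and 1 of the 20 proteasome partners rose and 3 fell, both slightly under the 23.7% of all genes that changed. Irf1 went from 15933 and 15229 to 5370 and 3647 (-1.82 ± 0.31) after 19751 and 19804 against 12418 and 12253 at 3 h (-0.68 ± 0.11), Irf8 fell by 1.42 and Nfkb1 by 1.84 on the log2 scale. Stat2 rose at 3 h, from 7606 and 7794 to 11871 and 11146 (0.58 ± 0.08). Of the proteasome partners Ddi2 went from 160.5 and 186.0 to 782.9 and 884.0 (2.26 ± 0.27), and the ubiquitin gene Ubb fell by 0.81 on the log2 scale. Of the class I-like genes Mr1 rose at 6 h (1.54 ± 0.28) and 12 h (2.23 ± 0.28), while H2-Q10 fell at both times (-1.08 ± 0.24 and -1.11 ± 0.24) and H2-M3 fell at 6 h (-0.95 ± 0.21). Lap3 was the 1 peptidase to fall at 6 h, by 1.34.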

How the data were processed

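RNA of 22 libraries was sequenced after column purification with a DNase step and a TruSeq library kit, per the labels' protocols. TopHat2, DESeq2 and the GRCm38 build are named, without versions, per the submitters' processing notes. How reads were counted (tool, annotation, strand) is not given in the sources used here. Each deposited signal is a gene's reads over a size factor of its library, set by the authors. Within 0.01 reads, 100% of values in each library were whole reads times a constant, so reads were recovered. Depth ran from 9337222 to 31772075 reads per library, and 1 read was worth 0.588 to 2.17 normalized reads.

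Differences were tested with limma 3.58.1 (trend, R 4.3.3) on log2(value + 1) over all groups of a table, for genes reaching 10 normalized reads in 2 or more libraries, two-sided, with Benjamini-Hochberg adjustment over all genes and a threshold of 0.05. This scale understates changes of low genes. On simulated 6 h data, 72 of 100 genes changed by 1 log2 unit and 100 of 100 changed by 2 were recovered, among 12817 genes. The simulation gave every gene the same count dispersion and changed far fewer genes than changed with LPS here. A panel of members, fixed by role, is given by library, with up to 5 further rises and falls per comparison and up to 4 genes of each other list with the smallest p. Members and lists were chosen with earlier results of these data known. Coordinates and GC content come from GENCODE M21 (GRCm38), and 23 members have an exon that overlaps another gene. Alternatives were other scalings, edgeR 4.0.16, DESeq2 1.42.0 (both on recovered reads), other pseudocounts and filters, GC correction, a replicate block and leaving out libraries. Whether replicate numbers pair the libraries was not settled, and the main fit used no pairing. A few items are not reported here.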

Additional observations from a re-analysis of the deposited data

Results flagged for a closer look

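Among members, and for the interactions also the other lists, 10 results differed by a test of the difference itself (limma, Benjamini-Hochberg over all genes, 2 libraries a group). Genes of the other lists that differed between 6 h and 12 h of LPS are not counted here. At 6 h the change with IL-10 differed between cells with and without LPS for Psmb6 (-1.57 ± 0.40, adjusted p = 0.041), the constitutive caspase-like subunit, with both libraries given both agents below both LPS libraries. The same interaction passed for the regulators Irf1 (-2.0 ± 0.43, adjusted p = 0.026), Irf8 (-1.73 ± 0.35, adjusted p = 0.019) and Ddi2 (2.14 ± 0.39, adjusted p = 0.013) and for the class I-like gene H2-M3 (-1.16 ± 0.30, adjusted p = 0.046). At 3 h it passed for Stat2 (0.54 ± 0.11, adjusted p = 0.039).

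Between 6 h and 12 h of LPS, Psmd5 (1.31 ± 0.22, adjusted p = 0.0034), H2-Q7 (1.23 ± 0.25, adjusted p = 0.01) and H2-Q6 (0.64 ± 0.18, adjusted p = 0.039) were higher at 12 h and Nlrc5 was lower (-0.98 ± 0.25, adjusted p = 0.027). None of these 4 passed when the first library of each 12 h group was left out.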

How the results depend on the processing

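For 59 genes named in the text (42 members, 17 others), 10003 of 10502 values under other settings kept direction and side of the threshold, 242 passed newly, 209 no longer passed and 48 changed sign with a call in either fit; with 1 library left out it was 9754, 140, 254 and 0 of 10148. Over all 66 members, 57, 61 and 57 changes with LPS were positive at 3 h, 6 h and 12 h. Of these 33, 30 and 20 turned negative at equal library totals, 22, 16 and 5 of them called higher before, and 19, 19 and 12 with quantile normalization. Among the 59 genes, where either fit called them, the log2 change with LPS turned negative at equal totals at 3 h for Psmb7 -0.14, Psme3 -0.41, Psme4 -0.37, Psmd14 -0.22, Psmc1 -0.38, Erap1 -0.38, Calr -0.17, Pdia3 -0.42, Psma5 -0.06, Psma6 -0.09, Psmb2 -0.21, Psmf1 -0.45, Nfe2l1 -0.01, Ubb -0.37, at 6 h for Psmb7 -0.08, Psme3 -1.1, Psmd14 -0.39, Psmc1 -0.7, Erap1 -0.31, Calr -0.61, Pdia3 -0.65, Psma1 -0.93, Psmd11 -0.11, Psmf1 -0.4, Nfe2l1 -0.13, and at 12 h for Psmc1 -0.05, Calr -0.58. With quantile normalization it did so at 3 h for Psmb7 -0.11, Psme3 -0.36, Psmd14 -0.18, Psmc1 -0.34, B2m -0.57, Erap1 -0.36, Calr -0.48, Pdia3 -0.66, Psma6 -0.11, Ubb -0.32, at 6 h for Psme3 -0.7, Psmd14 -0.13, Psmc1 -0.4, B2m -0.13, Erap1 -0.11, Calr -1.17, Pdia3 -1.1, Psma1 -0.74, Nfe2l1 -0.03, and at 12 h for Calr -0.99, Pdia3 -0.78. The cause was not tested. The counts of members that follow in this section come without the share of all genes called in the same fit. Quantile normalization called 30 members with LPS at 3 h, 32 at 6 h, 4 with IL-10 during LPS and 0 for the interaction at 6 h, and 7 for LPS at 12 h against 6 h. Equal totals called 2 with IL-10 during LPS at 3 h, 11 at 6 h, 1 with IL-10 alone at 12 h and 7 for 12 h against 6 h. Removing the GC trend called 4, 30 and 5 members for IL-10 during LPS over the 3 times, 9 for the interaction at 6 h and 19 for 12 h against 6 h. DESeq2 called 2 (3 h) and 4 (12 h) for IL-10 during LPS, and 9 for the interaction at 6 h, where edgeR and the fit with no filter called 0. TMM, no filter and a pseudocount of 8 each called 1 with IL-10 alone at 12 h. Fitting the compared groups alone called 0 at 3 h and 12 h for IL-10 alone, 14 (3 h) and 0 (12 h) for IL-10 during LPS, and 26 with LPS at 12 h. Leaving out the first library of each 12 h group called 11 with IL-10 during LPS at 6 h, 0 with IL-10 alone at 12 h and 0 for 12 h against 6 h.

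Leaving out 1 library gave 35 to 51, 45 to 52 and 33 to 45 members with LPS at 3 h, 6 h and 12 h; 0 to 16, 0 to 0 and 0 to 1 for IL-10 alone; 0 to 4, 0 to 28 and 0 to 3 when IL-10 was added to LPS; 0 to 6, 0 to 27 and 0 to 0 for the interaction; and 1 to 6 for LPS and 0 to 1 for IL-10 during LPS at 12 h against 6 h.

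Whether replicate numbers pair the libraries was not settled. Deviations of same-numbered libraries had correlations from -0.05 to 0.27 (median 0.09) over 6 pairs of groups at 3 h, 3 of them above 0.1. In the other table they ran from -0.41 to 0.70 (median -0.15) over 21 pairs, 6 above 0.1. Over all genes, the second to first library ratio ran against GC in the control (-0.80), LPS at 6 h (-0.55) and both agents at 6 h (-0.70). With the replicate block 52, 51 and 44 members passed with LPS at 3 h, 6 h and 12 h, 1, 0 and 1 for IL-10 alone, 2, 15 and 2 when IL-10 was added to LPS, 0, 1 and 0 for the interaction, and 3 and 0 for 12 h against 6 h. The block with the GC trend removed gave 2 for IL-10 alone and 2 for the interaction at 3 h, 4, 27 and 4 when IL-10 was added to LPS, 6 for the interaction at 6 h and 14 for LPS at 12 h against 6 h. With 2 libraries a group, changes of 1 log2 unit can be missed: 48 of 100 were recovered in simulated 3 h data and 72 of 100 in 6 h data. Far fewer genes changed in the simulation than with LPS here, so these counts do not give the share missed in the data.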

Other observations

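Of 8 class I-like genes tested, 2 passed with IL-10 alone at 12 h, both higher, where 1.56% of all genes passed. Fcgrt, the receptor that recycles IgG, read 354.0 and 175.4 in the controls and 1085 and 1300 with IL-10 (2.25 ± 0.32, adjusted p = 0.0062 by limma), and Hfe, a regulator of iron uptake, read 552.6 and 660.6 against 1213 and 1315 (1.06 ± 0.17, adjusted p = 0.012). Both groups are free of overlap. With LPS for 12 h, Mr1 read 186.6 and 124.5, and with LPS and IL-10 592.5 and 872.6, above both controls (198.6 and 305.5).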
